A study of Homo sapiens with 14 samples.

Results

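The mRNAs of 10 glycolytic enzymes were followed in CWR22Rv1 cells, a human prostate cancer line established from a xenograft and used as a luminal model. The enzymes were HK1, HK2, GPI, PFKP, ALDOA, GAPDH, PGK1, ENO1, PKM and LDHA, which are 10 of the 27819 genes shared by the 4 count tables of the series, and their rows were found by gene symbol or NCBI gene number. All cells were treated for 72 h: 3 control libraries received DMSO, 3 received 30 µM Fucotrim I, 2 received 60 µM Fucotrim II, 3 received 100 µM SGN-2FF (also called 2FF) and 3 received 2 µM P-SiaFNEtoc. Fucotrim I, Fucotrim II and SGN-2FF are inhibitors of fucosylation, the addition of fucose to glycans, and P-SiaFNEtoc is an inhibitor of sialylation, the addition of sialic acid. The design asks what each inhibitor did to the transcriptome against DMSO. The 4 comparisons share the same DMSO libraries, and the doses differ between the inhibitors, so their values stand side by side below and were not tested against each other. All libraries come from 1 cell line, and the labels call the repeats of a group biological repeats.

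Glycolysis turns glucose into pyruvate in the cytosol and yields ATP and NADH. Hexokinases trap glucose as a phosphate, GPI, phosphofructokinase and aldolase prepare and split the hexose, and the enzymes from GAPDH to pyruvate kinase harvest its energy. Lactate dehydrogenase then reduces pyruvate to lactate and restores NAD+. The genes are classical targets of the hypoxia-inducible factor HIF1 and of MYC, and many tumours run the pathway at a high rate even with oxygen present. The sugars that the inhibitors interfere with are built from the same hexose phosphates: GDP-fucose through the mannose branch, and sialic acid through the hexosamine branch.

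The libraries held 12553094 to 19981453 counts on genes. The luminal markers were present in DMSO, with KRT8, a keratin of luminal cells, at 478 CPM (counts of a gene scaled to a fixed library total), and KLK3, the gene of prostate-specific antigen, at 30.6. Of the 4 basal markers 3 had at most 10 counts in every DMSO library, as had all 4 endothelial markers, 4 of the 5 leukocyte markers and 3 of the 6 fibroblast markers. The 6 fibroblast markers summed to 19.8 to 22.1 CPM in DMSO, most of it from the collagen COL1A1, at 17.3 CPM. Luminal markers moved with every inhibitor: 8, 8, 9 and 6 of 10 were higher with Fucotrim I, Fucotrim II, SGN-2FF and P-SiaFNEtoc. Of all genes tested, 21.6%, 25.6%, 11.5% and 9.02% were higher in the same order. The summed level of the luminal markers ran from 2279 to 2358 CPM in DMSO and from 2619 to 3282 CPM over the treated libraries. Mitochondrially encoded genes took 5.98 to 7.03% of the counts in DMSO, 8.67 to 14.2% with Fucotrim I, 17.0 and 12.2% with Fucotrim II, 8.27 to 8.69% with SGN-2FF and 6.11 to 6.83% with P-SiaFNEtoc. The part of these shifts in the values of the enzymes was not tested.

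In DMSO the 10 mRNAs spanned a wide range. Per kilobase of exon, GAPDH stood at 1996 ± 14 CPM (SD, n = 3), ALDOA at 248 ± 4.3, ENO1 at 173 ± 4.2, LDHA at 105.5 ± 2.7 and PKM at 105.1 ± 2.8. PGK1 followed at 69.9 ± 1.0, GPI at 42.6 ± 1.3, HK1 at 35.0 ± 1.4, HK2 at 23.6 ± 0.47 and PFKP at 3.07 ± 0.16 CPM per kilobase. LDHA and PKM did not differ beyond their spread, and every other pair of neighbours in this order was further apart than its SDs. When the length of the longest transcript replaced that of all exons, PKM came before LDHA and GPI before PGK1, so these orders depend on the length used. The smallest count behind any DMSO value was 368, for PFKP, and the largest was 87057, for GAPDH.

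The counts rest on reads assigned to whole genes. PKM isoforms that differ by one exon are therefore summed. For ALDOA 42.8% of the exon bases are also exons of an unnamed GENCODE gene on the same strand, and 13.6% lie opposite exons of another unnamed gene. For GAPDH 17.6% of the exon bases lie opposite exons of an unnamed gene on the other strand. GPI shared 5.07% of its exon bases on its strand, and for each of the other 7 enzymes under 3% lay in exons of another gene on either strand. The libraries were made with a stranded kit, but the strand setting of the counting and the treatment of reads that match several genes are not given in the sources used here, so the values of ALDOA and GAPDH are uncertain to that extent.

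The stretches upstream of the transcription starts of PGK1, ENO1 and LDHA are shown because HIF1 binds the core letters ACGTG or GCGTG, and because PGK1 and ENO1 were each called in 3 comparisons and LDHA had the largest change. RefSeq (GRCh38.p14) gives 23 start windows for the 10 enzymes, each reaching from 250 bases before the start to 50 after it, and some windows of a gene overlap. Only the 250 bases before the start were searched in each window. Either core, read on both strands, was found there in 14 of the 23 windows and in 43.2% of all 35116 windows, searched in the same way. ACGTG was in 10 of the 23 (18.5% of all windows), GCGTG in 7 (32.2%), the E-box CACGTG, the letters that MYC binds and that contain ACGTG on both strands, in 4 (6.34%), and the GC box GGGCGG in 12 (42.6%). Of the 10 enzymes, 9 had a core in at least 1 window, HK1 in only 1 of its several windows, and PKM had none. The enzymes differ in their number of windows, and the share of all genes with a core in at least 1 window was not counted. The 250 bases before the start are printed 5′ to 3′ on the strand of the gene, with cores in capitals on either strand.
PGK1, chrX:78103998-78104247, plus strand: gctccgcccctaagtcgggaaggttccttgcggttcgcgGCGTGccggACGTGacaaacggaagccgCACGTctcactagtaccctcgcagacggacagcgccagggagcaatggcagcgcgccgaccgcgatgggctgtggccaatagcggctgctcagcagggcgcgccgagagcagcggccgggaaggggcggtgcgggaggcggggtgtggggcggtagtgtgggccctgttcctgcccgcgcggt
ENO1, chr1:8878687-8878936, minus strand: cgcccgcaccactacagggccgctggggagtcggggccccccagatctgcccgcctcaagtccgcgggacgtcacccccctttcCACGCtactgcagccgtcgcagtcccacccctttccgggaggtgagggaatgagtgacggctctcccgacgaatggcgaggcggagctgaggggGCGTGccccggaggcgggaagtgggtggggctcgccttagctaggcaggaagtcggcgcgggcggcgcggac
LDHA, first window, chr11:18394313-18394562, plus strand: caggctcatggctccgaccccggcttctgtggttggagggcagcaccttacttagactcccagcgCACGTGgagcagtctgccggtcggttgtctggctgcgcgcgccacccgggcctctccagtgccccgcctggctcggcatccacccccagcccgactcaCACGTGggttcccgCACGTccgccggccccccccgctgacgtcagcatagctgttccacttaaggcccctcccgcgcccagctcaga
A match describes these letters only. No binding was measured in these libraries.

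All 10 enzymes passed the filter on low counts in all 4 comparisons, and an enzyme was called where its adjusted p (edgeR's quasi-likelihood test, Benjamini-Hochberg adjustment over all genes tested) was under 0.05. With Fucotrim I, 2 of 10 were higher, ALDOA and ENO1, and 1 was lower, GAPDH, where 21.6% of all 14188 genes tested were higher and 22.1% lower. With Fucotrim II, 0 were higher and 5 were lower, LDHA, PGK1, GAPDH, HK2 and GPI, where 25.6% of 14617 genes were higher and 25.7% lower. With SGN-2FF, 2 were higher, ENO1 and PGK1, and 0 lower, beside 11.5% and 9.08% of 14312 genes. With P-SiaFNEtoc, 3 were higher, ALDOA, PGK1 and ENO1, and 0 lower, beside 9.02% and 7.33% of 14259 genes. Where a direction held 0 enzymes by edgeR's test, it also held 0 at an unadjusted p under 0.05, by DESeq2 and by limma-voom. This did not hold in every alternative. ALDOA was called higher with Fucotrim II in the fit of all 14 libraries together, and HK1 lower with SGN-2FF without scaling factors between libraries. HK1, PFKP and PKM were called in none of the 4 comparisons.

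The median absolute log2 fold change of the 10 enzymes was 0.07 with Fucotrim I, 0.21 with Fucotrim II, 0.06 with SGN-2FF and 0.09 with P-SiaFNEtoc, beside 0.21, 0.33, 0.12 and 0.11 over all genes tested. The signed median log2 fold change of the 10 enzymes was -0.02 with Fucotrim I, -0.21 with Fucotrim II, 0.04 with SGN-2FF and 0.09 with P-SiaFNEtoc, and that of all genes tested was 0.00, 0.01, 0.00 and 0.00. Libraries of the treated group and of DMSO did not overlap for 4, 8, 2 and 6 of the 10 enzymes, where this held for 52.3%, 67.4%, 36.4% and 33.4% of all genes. The split between higher and lower calls depends on the scaling between libraries, least so with P-SiaFNEtoc. With library totals in place of TMM factors, the all-gene median moved to -0.15 with Fucotrim II. The higher and lower calls over all genes became 2255 and 4226 with Fucotrim I (3068 and 3141 with TMM) and 2490 and 5481 with Fucotrim II (3748 and 3763). They became 1270 and 2149 with SGN-2FF (1647 and 1299) and 1163 and 1140 with P-SiaFNEtoc (1286 and 1045). Under that scaling the enzymes called were GAPDH and LDHA, both lower, with Fucotrim I, 7 lower enzymes with Fucotrim II, HK1, lower, with SGN-2FF, and the same 3 higher enzymes with P-SiaFNEtoc.

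**Figure D1:**
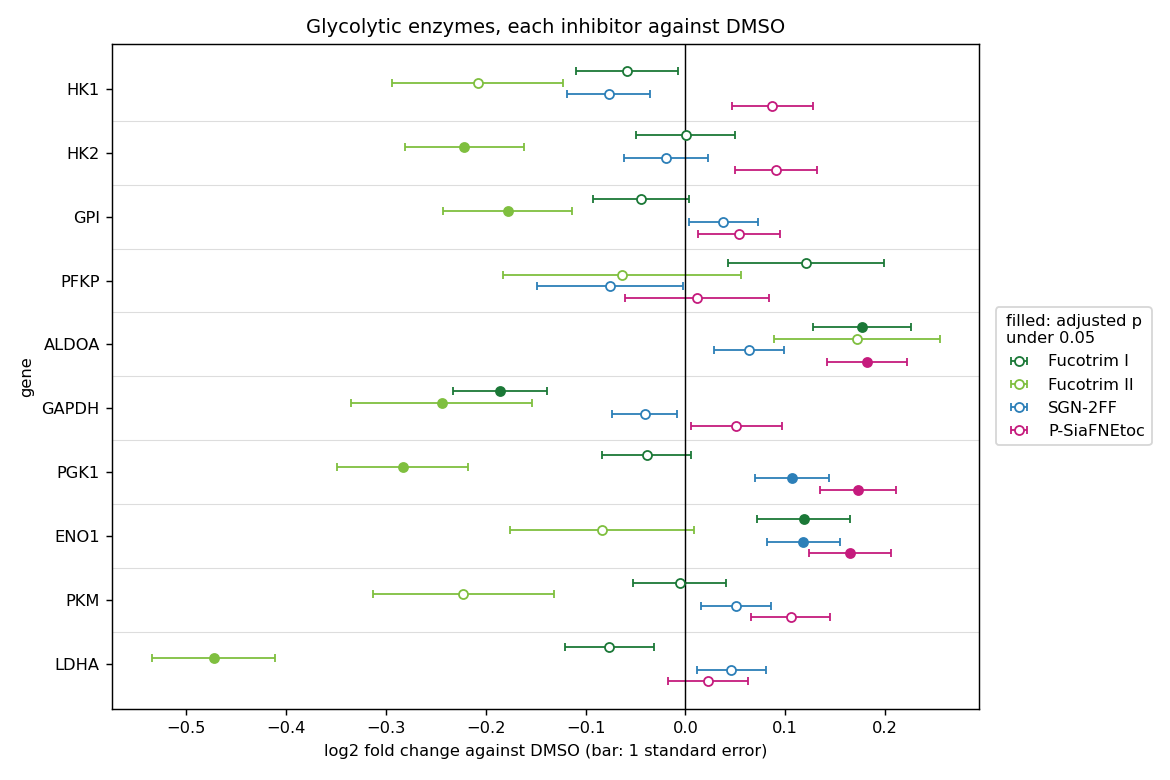
Log2 fold change against DMSO (horizontal axis) of each of the 10 enzymes (vertical axis, in pathway order) for the 4 inhibitors, with bars of 1 standard error and filled points for an adjusted p under 0.05. LDHA with Fucotrim II, at -0.47, lies furthest from 0, and all 10 points of P-SiaFNEtoc lie above 0.

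The 2 hexokinases gave different calls. HK1 (NCBI gene 3098, chr10:69269984-69401884 in GRCh38), the broadly expressed hexokinase bound to mitochondria, read 243, 230.1 and 249 CPM in DMSO, 241, 221 and 225 with Fucotrim I, 188 and 229.7 with Fucotrim II, 232, 232 and 213 with SGN-2FF, and 261, 251 and 253 with P-SiaFNEtoc. Both Fucotrim II libraries lay below DMSO, the second by less than 1 CPM, and the 3 P-SiaFNEtoc libraries lay above it, but no comparison passed the test: the adjusted p was 0.0672 with Fucotrim II (log2 fold change -0.21 ± 0.09 SE) and 0.143 with P-SiaFNEtoc (0.09 ± 0.04). With Fucotrim II HK1 was called in 5 of 17 alternatives, among them the fit without Fucotrim II replicate 2. That fit leaves 1 treated library, and so holds no spread within the treatment. The log2 fold change of HK1 was -0.36 in it and -0.07 without replicate 1. HK2 (gene 3099, chr2:74834127-74893359), the hexokinase induced in many tumours, read 142, 140.3 and 136 CPM in DMSO and 119.7 and 120.4 with Fucotrim II, so that both treated libraries lay well below the controls. It fell by 0.22 ± 0.06 (log2) with Fucotrim II, 14.2% lower, adjusted p = 0.0120. Without DMSO replicate 1 the adjusted p was 0.0642, so this call rests on that library. HK2 read 137, 139 and 138 CPM with Fucotrim I, 141, 134 and 134 with SGN-2FF and 149, 146 and 149 with P-SiaFNEtoc, for log2 fold changes of 0.00, -0.02 and 0.09, none of them called.

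GPI (gene 2821, chr19:34359480-34402413), the isomerase that turns glucose phosphate into fructose phosphate, read 456, 469 and 442 CPM in DMSO and 384 and 423 with Fucotrim II. Both treated libraries lay below the controls, and GPI fell by 0.18 ± 0.06 (log2; adjusted p = 0.0433). That call was lost without any 1 of the DMSO replicates (adjusted p 0.116 to 0.167), and in 12 of 17 alternatives in all. Without Fucotrim II replicate 1, which leaves 1 treated library, the log2 fold change was -0.11. With Fucotrim I, SGN-2FF and P-SiaFNEtoc the GPI values overlapped those of DMSO, at log2 fold changes of -0.04, 0.04 and 0.05. PFKP (gene 5214, chr10:3066333-3137718), the platelet-type phosphofructokinase of the committed step, was the scarcest of the 10, at 25.3, 23.4 and 22.9 CPM in DMSO, and its libraries overlapped with DMSO in every comparison, over 19.6 to 26.7 CPM in all. Its log2 fold changes were 0.12 ± 0.08, -0.06 ± 0.12, -0.08 ± 0.07 and 0.01 ± 0.07 with Fucotrim I, Fucotrim II, SGN-2FF and P-SiaFNEtoc. The Fucotrim II value has no settled direction: the libraries read 19.6 and 26.2 CPM, one below and one above all controls.

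ALDOA (gene 226, chr16:30064164-30070457), the main aldolase, which splits the hexose bisphosphate, read 955, 929 and 959.7 CPM in DMSO. It read 1119.8, 999 and 1067 CPM with Fucotrim I and 1047, 1054 and 1117 with P-SiaFNEtoc, and in both groups every library lay above every control. ALDOA rose by 0.18 ± 0.05 (log2) with Fucotrim I, adjusted p = 0.00597, and by 0.18 ± 0.04 with P-SiaFNEtoc, 13.4% higher, adjusted p = 0.00180. Without scaling factors the Fucotrim I value was 0.10 and not called (adjusted p = 0.136), and in a fit of all 14 libraries together the P-SiaFNEtoc value was not called (adjusted p = 0.0810). The Fucotrim II libraries read 967 and 1176 CPM, the first just above the highest control and the second the highest of all 14, for a log2 fold change of 0.17 ± 0.08 and an adjusted p of 0.112. That value spread with the library: it was 0.31 without replicate 1 and 0.02 without replicate 2, each fit with 1 Fucotrim II library left. In the fit of all 14 libraries together ALDOA was called higher with Fucotrim II (0.18, adjusted p = 0.0297). With SGN-2FF, ALDOA read 1023, 980.3 and 939 CPM, overlapped DMSO and had a log2 fold change of 0.06 ± 0.03, not called.

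GAPDH (gene 2597, chr12:6534512-6538374), the dehydrogenase that makes NADH and a gene often used as a constant reference in PCR, read 4813, 4786 and 4744 CPM in DMSO and 4264, 3985 and 4246 with Fucotrim I. The 3 treated libraries lay below the controls by more than the spread within either group. GAPDH fell by 0.19 ± 0.05 (log2) with Fucotrim I, 12.1% lower, adjusted p = 0.00302, and this call held in all 17 alternatives. With Fucotrim II it read 3687 and 4414 CPM, both below the controls but far from each other. It fell by 0.24 ± 0.09 (adjusted p = 0.0467). The call was lost in 9 of 17 alternatives, among them without any 1 DMSO replicate (adjusted p 0.163 to 0.176). Without Fucotrim II replicate 1, which leaves 1 treated library, the log2 fold change was -0.12. SGN-2FF libraries read 4721, 4635 and 4442 CPM, all under the lowest control, for a log2 fold change of -0.04 ± 0.03 that was not called. P-SiaFNEtoc libraries read 4739.7, 4842 and 5236 CPM, on both sides of the controls, for 0.05 ± 0.05, also not called.

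PGK1 (gene 5230, chrX:77910739-78129295), which makes the first ATP of the pathway, was called in 3 comparisons, with both signs. It read 386, 378 and 376 CPM in DMSO, 296 and 331 with Fucotrim II, 426, 399 and 390.1 with SGN-2FF, and 418, 426 and 438 with P-SiaFNEtoc. The Fucotrim II libraries lay below every control, and those of SGN-2FF and P-SiaFNEtoc lay above, SGN-2FF replicate 3 by less than 4 CPM. PGK1 fell by 0.28 ± 0.07 (log2) with Fucotrim II, 17.8% lower, adjusted p = 0.00549. It rose by 0.17 ± 0.04 with P-SiaFNEtoc, 12.7% higher, adjusted p = 0.00185, a call that held in all 17 alternatives. With SGN-2FF it rose by 0.11 ± 0.04 (adjusted p = 0.0391), but this was lost in 11 of 17 alternatives, among them without any 1 of the libraries other than SGN-2FF replicate 3 (adjusted p 0.0707 to 0.258). With Fucotrim I, PGK1 read 377, 356 and 366 CPM and had a log2 fold change of -0.04 ± 0.04, not called.

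ENO1 (gene 2023, chr1:8861000-8879190), the main enolase, was called higher in 3 comparisons. It read 917, 908 and 875 CPM in DMSO, 1007, 919.5 and 978 with Fucotrim I, 1014, 982 and 903 with SGN-2FF, and 966, 994 and 1059 with P-SiaFNEtoc. All libraries of Fucotrim I and P-SiaFNEtoc lay above the controls, Fucotrim I replicate 2 by less than 3 CPM, and SGN-2FF replicate 3 lay among the controls. ENO1 rose by 0.16 ± 0.04 (log2) with P-SiaFNEtoc, 12.1% higher, adjusted p = 0.00519, and this was lost only in the fit of all 14 libraries (adjusted p = 0.161). With Fucotrim I it rose by 0.12 ± 0.05 (adjusted p = 0.0471), a call lost in 9 of 17 alternatives, among them without any 1 library other than Fucotrim I replicate 2 (adjusted p 0.0914 to 0.193). With SGN-2FF it rose by 0.12 ± 0.04 (adjusted p = 0.0226), a call lost in 6 of 17, among them without DMSO replicate 3 (0.135), SGN-2FF replicate 1 (0.180) or SGN-2FF replicate 2 (0.129). The Fucotrim II libraries read 751 and 953.5 CPM, below and above all controls, and the log2 fold change of -0.08 ± 0.09 turned to 0.08 without replicate 1.

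PKM (gene 5315, chr15:72199029-72231819), the pyruvate kinase of most tissues and tumours, read 929, 891 and 884 CPM in DMSO, 922, 851 and 894 with Fucotrim I, 686 and 863 with Fucotrim II, 962, 931 and 878 with SGN-2FF, and 935, 959 and 1006.5 with P-SiaFNEtoc. Both Fucotrim II libraries lay below the controls and all P-SiaFNEtoc libraries above, at log2 fold changes of -0.22 ± 0.09 (adjusted p = 0.0643) and 0.11 ± 0.04 (adjusted p = 0.0676). The Fucotrim II value was called in 5 of 17 alternatives, among them the fit without Fucotrim II replicate 2, at a log2 fold change of -0.40. That fit leaves 1 treated library, and so holds no spread within the treatment. The P-SiaFNEtoc value was called in 2 alternatives, the DESeq2 test (adjusted p = 0.0496) and limma-voom with quality weights (adjusted p = 0.0397).

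LDHA (gene 3939, chr11:18394560-18408425), the lactate dehydrogenase subunit that favours lactate formation, gave the largest change among the 10 enzymes in the 4 comparisons. It read 647, 643 and 617 CPM in DMSO and 445 and 474 with Fucotrim II, a gap between the groups far wider than the spread within them. LDHA fell by 0.47 ± 0.06 (log2) with Fucotrim II, 27.9% lower, adjusted p = 0.000243. The call held in all 17 alternatives, over log2 fold changes from -0.63 to -0.43, with the first of these from library totals, where the median of all genes was -0.15. With Fucotrim I LDHA read 589, 602 and 601 CPM, all under the lowest control, for -0.08 ± 0.04 (adjusted p = 0.173), a value called without scaling factors (-0.15, adjusted p = 0.0207). SGN-2FF libraries read 668, 628 and 651 CPM and P-SiaFNEtoc libraries 620.3, 632 and 679.7, both overlapping the controls, for 0.05 ± 0.03 and 0.02 ± 0.04, neither called.

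**Figure D2:**
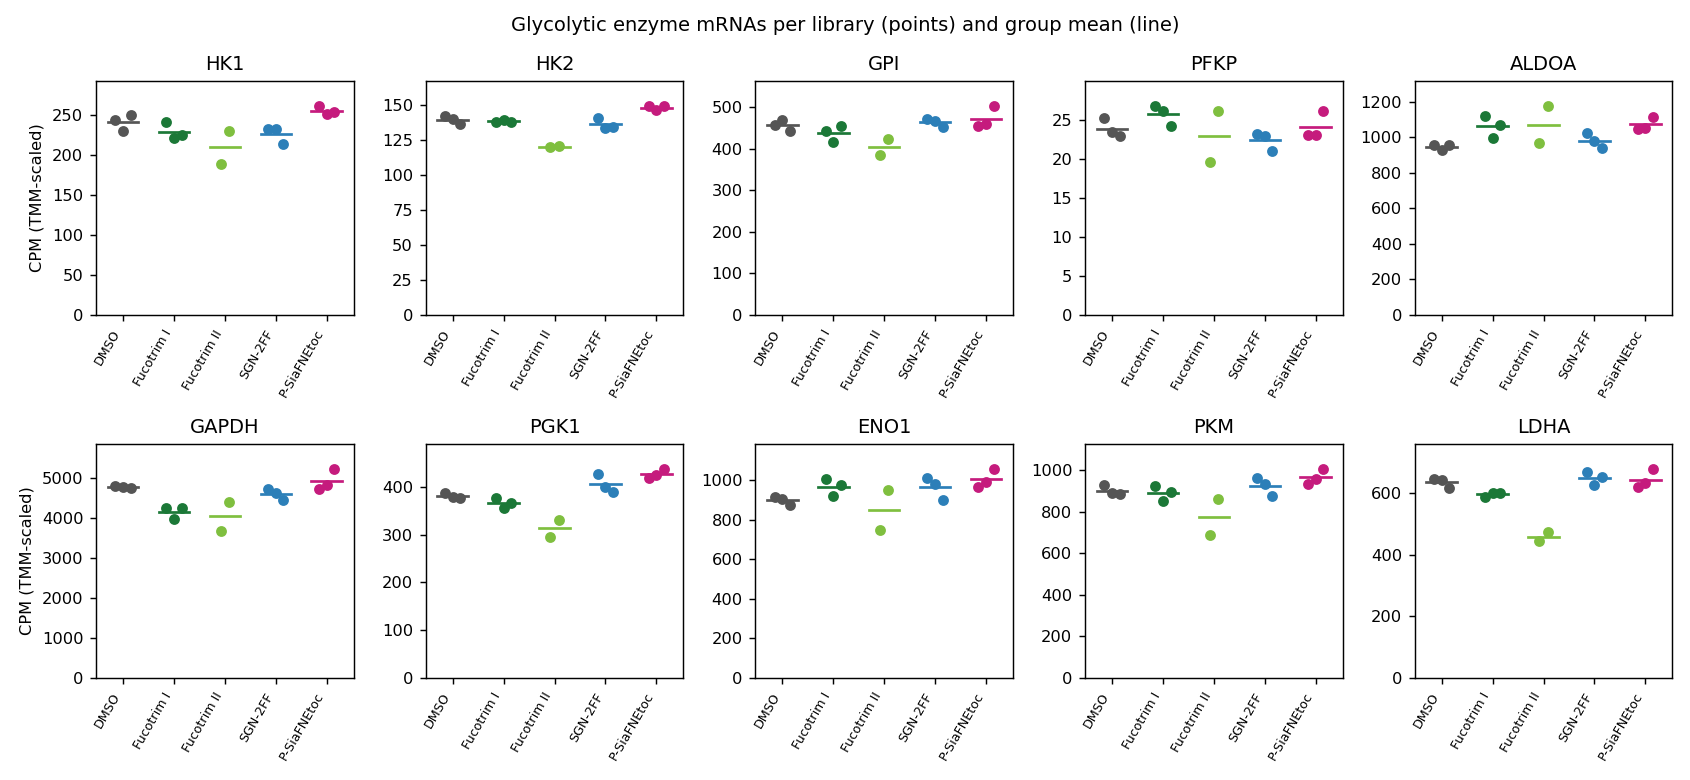
Level of each enzyme in CPM (vertical axis, linear and starting at 0, scaled together over the 14 libraries), with 1 point a library and a line at the mean of each group (horizontal axis). LDHA in both Fucotrim II libraries, at 445 and 474 CPM, lies below all other points of its panel, and the pair of Fucotrim II points stands far apart for ALDOA, GAPDH, ENO1 and PKM.

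The 2 Fucotrim II libraries differed from each other in the same direction for all 10 enzymes. Replicate 2 was above replicate 1 by 0.42 (log2) for PFKP, 0.34 for ENO1, 0.33 for PKM, 0.29 for HK1, 0.28 for ALDOA and 0.26 for GAPDH. The gap was smaller for PGK1 (0.16), GPI (0.14), LDHA (0.09) and HK2 (0.01). With replicate 1 alone against DMSO, the median log2 fold change of the 10 enzymes was -0.33, and with replicate 2 alone it was -0.09. Each of these fits has 1 treated library and takes its spread from DMSO, so only their medians are given here. These libraries also differed in the share of mitochondrially encoded counts, 17.0% in replicate 1 and 12.2% in replicate 2, and the part of this in the enzyme levels was not tested.

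Summed over the 10 enzymes, the share of all counts on genes was 0.963 to 0.973% in DMSO. It was 0.848 to 0.921% with Fucotrim I and 0.690 and 0.833% with Fucotrim II, below every control. SGN-2FF libraries, at 0.921 to 0.976%, lay on both sides, and P-SiaFNEtoc libraries, at 0.996 to 1.06%, lay above every control. The share carries the rise of the mitochondrially encoded genes in the total: with these left out, the group means were 1.03% in DMSO, 0.992% with Fucotrim I, 0.890% with Fucotrim II, 1.04% with SGN-2FF and 1.09% with P-SiaFNEtoc. GAPDH alone made up 50.8 ± 0.21% (SD, n = 3) of the counts of the 10 enzymes in DMSO, 46.9 ± 0.26% with Fucotrim I, 48.9 ± 0.077% (n = 2) with Fucotrim II, 49.1 ± 0.27% with SGN-2FF and 49.6 ± 0.38% with P-SiaFNEtoc. The sum thus follows GAPDH more than any other enzyme.

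**Figure D3:**
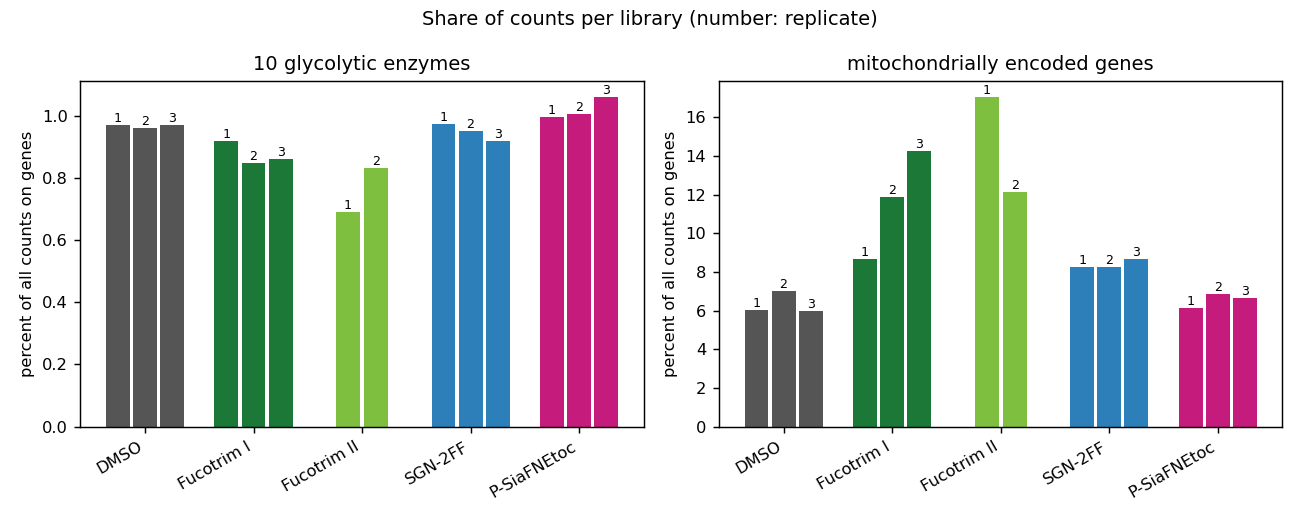
Percent of all counts on genes (vertical axes, starting at 0) taken by the 10 enzymes (left) and by the mitochondrially encoded genes (right), with 1 bar a library, numbered by replicate and grouped by treatment. Fucotrim II replicate 1 has the lowest enzyme share, 0.690%, and the highest mitochondrial share, 17.0%.

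Several steps are shared by isozymes, and their shares were compared per kilobase of exon. ALDOA made up 94.4, 94.7 and 94.7% of the aldolases in DMSO, 93.9, 93.8 and 93.4% with Fucotrim I and 92.1 and 92.8% with Fucotrim II. The libraries of both Fucotrim groups lay below every control. ALDOC, the brain-type aldolase, read 38.4, 35.8 and 36.6 CPM in DMSO, 49.8, 45.0 and 51.6 with Fucotrim I and 56.3 and 62.0 with Fucotrim II. It rose by 0.41 ± 0.07 (log2; adjusted p = 7.01e-05) with Fucotrim I, by 0.68 ± 0.07 (adjusted p = 0.000103) with Fucotrim II and by 0.25 ± 0.06 (adjusted p = 0.00361) with P-SiaFNEtoc, and with SGN-2FF its value was 0.14 ± 0.06 and not called.

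ENO1 made up 76.1 ± 0.74% of the enolases in DMSO, 72.1 ± 2.6% (n = 2) with Fucotrim II, and 77.6 ± 0.94% and 77.6 ± 0.36% with SGN-2FF and P-SiaFNEtoc. Fucotrim II libraries lay below every control and those of SGN-2FF and P-SiaFNEtoc above. The Fucotrim II difference of -4.00 percentage points was -5.86 without its replicate 2 and -2.13 without its replicate 1. ENO2, the neuronal enolase, rose by 0.19 ± 0.06 (log2; adjusted p = 0.0252) with Fucotrim II, a call lost in 6 of 17 alternatives. LDHA made up 24.9 ± 0.44% of LDHA and LDHB in DMSO and 22.1 ± 0.29% (n = 2) with Fucotrim II, where both libraries lay below the controls. The level of this share depends on the length used: the DMSO libraries read 24.4 to 25.3% per kilobase of all exons, 30.9 to 31.9% with the longest transcript and 39.5 to 40.6% with counts not divided by length. LDHB, the subunit typical of tissues that oxidise lactate, fell as well, by 0.25 ± 0.07 (adjusted p = 0.0120), a call lost in 4 of 17 alternatives. HK2 made up 39.5 ± 1.3% of the hexokinases and PFKP 4.58 ± 0.24% of the phosphofructokinases in DMSO, and their libraries overlapped with DMSO under every inhibitor. In 20 two-sided exact permutation tests of these shares no adjusted p was under 0.50, and none could pass, since 3 against 3 libraries cannot give a p under 0.1 and 3 against 2 cannot give one under 0.2.

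**Figure D4:**
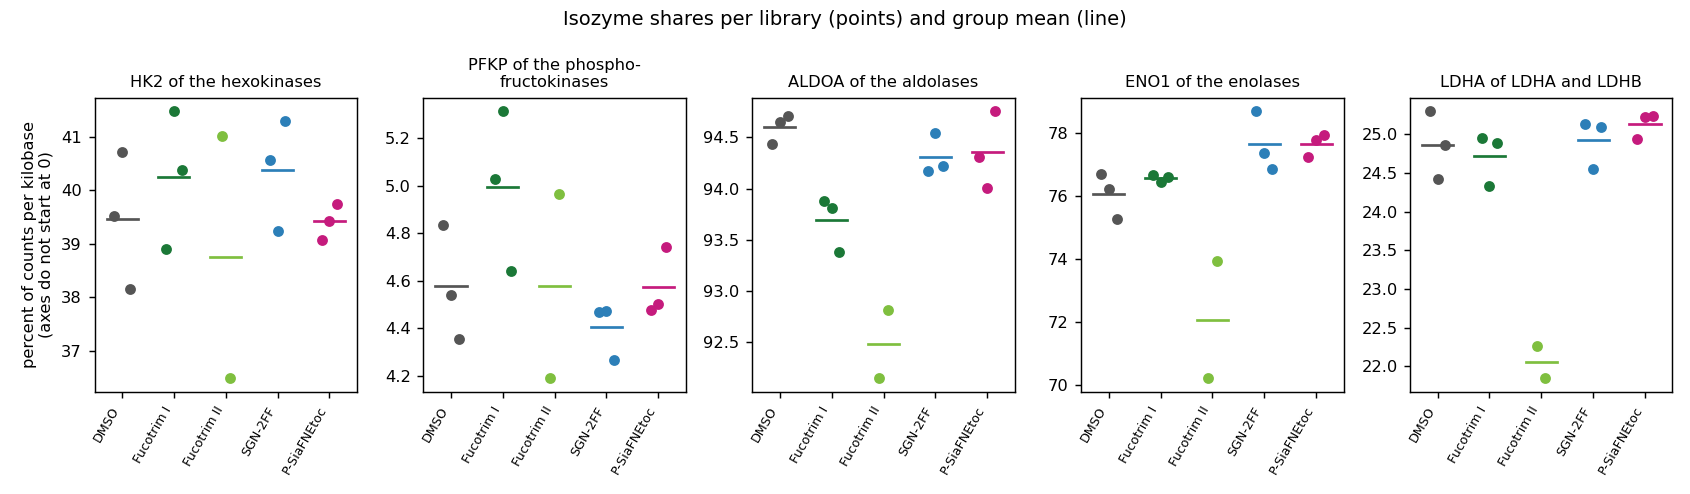
Share of 1 isozyme among those of its step, in percent of counts per kilobase of exon (vertical axes, which do not start at 0), with 1 point a library and a line at the mean of each group (horizontal axis). For ALDOA and LDHA both Fucotrim II points lie below all DMSO points, and for HK2 and PFKP the groups overlap.

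Of 97 other genes of glucose use, in 9 lists, 81 passed the filter with Fucotrim I, where 19 were higher and 18 lower. With Fucotrim II 25 of 82 were higher and 21 lower, with SGN-2FF 17 of 81 were higher and 11 lower, and with P-SiaFNEtoc 18 of 82 were higher and 6 lower. Their median log2 fold changes were 0.04, 0.04, 0.03 and 0.06. Over all genes tested, 21.6% were higher and 22.1% lower with Fucotrim I, and 25.6% and 25.7% with Fucotrim II. The shares were 11.5% and 9.08% with SGN-2FF, and 9.02% and 7.33% with P-SiaFNEtoc. The other enzymes of the glycolytic steps gave 4 higher and 2 lower of 13 with Fucotrim I, 6 and 3 with Fucotrim II, 3 and 0 with SGN-2FF, and 2 and 0 with P-SiaFNEtoc. PGAM1, the mutase between PGK1 and enolase, read 141, 135 and 136 CPM in DMSO, 117, 109 and 115 with Fucotrim I and 78.3 and 93.8 with Fucotrim II. It fell by 0.25 ± 0.05 (adjusted p = 0.000513) and by 0.68 ± 0.08 (adjusted p = 0.000153), and was not called with SGN-2FF or P-SiaFNEtoc. TPI1, the triose phosphate isomerase, and PFKL and PFKM, the liver and muscle phosphofructokinases, were called in none of the 4 comparisons. LDHD, the mitochondrial enzyme that oxidises D-lactate, rose by 0.85 ± 0.15 with Fucotrim I, 1.10 ± 0.14 with Fucotrim II, 0.32 ± 0.11 with SGN-2FF and 0.39 ± 0.11 with P-SiaFNEtoc (adjusted p 0.000369, 0.000239, 0.0469 and 0.0108), the third lost in 10 and the last in 3 of 17 alternatives. ENO3, the muscle enolase, was the largest rise with SGN-2FF among these genes with at least 50 counts on average, at 0.62 ± 0.11 (adjusted p = 0.000274). It also rose by 0.40 ± 0.14 with Fucotrim I (adjusted p = 0.0228, lost in 4 of 17 alternatives) and by 0.68 ± 0.13 with Fucotrim II (adjusted p = 0.00203), and was 0.27 ± 0.12 and not called with P-SiaFNEtoc.

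Transporters of glucose and lactate gave 5 higher and 1 lower of 9 with Fucotrim I, 5 and 1 with Fucotrim II, 3 and 0 with SGN-2FF and 3 and 1 with P-SiaFNEtoc. The shares over all genes tested, in the same order, were 21.6, 25.6, 11.5 and 9.02% higher and 22.1, 25.7, 9.08 and 7.33% lower. SLC16A3, the lactate exporter MCT4 of glycolytic cells, read 27.6, 29.4 and 27.7 CPM in DMSO, 42.6, 42.8 and 44.4 with Fucotrim I, 36.8 and 48.7 with Fucotrim II, 40.6, 40.4 and 33.9 with SGN-2FF, and 39.4, 38.9 and 41.9 with P-SiaFNEtoc. Every treated library lay above every control. Its rise was 0.63 ± 0.07, 0.59 ± 0.11, 0.46 ± 0.07 and 0.51 ± 0.06 (log2; adjusted p 4.13e-07, 0.00179, 2.26e-05 and 4.95e-07), against DMSO libraries that the 4 comparisons share. SLC2A12, a glucose transporter, read 33.0, 33.9 and 34.1 CPM in DMSO and 38.3 to 64.3 in the treated libraries. It rose by 0.64 ± 0.06, 0.82 ± 0.08, 0.40 ± 0.06 and 0.23 ± 0.06 (adjusted p 1.51e-07, 7.32e-05, 2.19e-05 and 0.00589). SLC16A7, a transporter with high affinity for pyruvate, read 13.7, 14.3 and 12.6 CPM in DMSO and 5.4 and 3.7 with Fucotrim II, and Fucotrim II gave its largest fall, 1.59 ± 0.16 (adjusted p = 6.68e-05). Its log2 fold change was -0.49 ± 0.12 with Fucotrim I and -0.33 ± 0.09 with P-SiaFNEtoc (adjusted p 0.00297 and 0.0152), the last lost in 4 of 17 alternatives. SLC2A1, the basal glucose transporter GLUT1, was called with P-SiaFNEtoc alone (0.16 ± 0.05, adjusted p = 0.0250, lost in 5 of 17 alternatives), and SLC16A1, the lactate transporter MCT1, with no inhibitor. SLC2A3, another glucose transporter, and the hexokinase HKDC1 stayed under 1 CPM in every library and were not tested.

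Regulators of the flux gave 1 higher and 2 lower of 13 with Fucotrim I, 4 and 5 with Fucotrim II, 0 and 1 with SGN-2FF and 2 and 2 with P-SiaFNEtoc. Over all genes tested, in the same order, 21.6, 25.6, 11.5 and 9.02% were higher and 22.1, 25.7, 9.08 and 7.33% lower. Among these regulators PFKFB4, which makes the activator of phosphofructokinase, rose with Fucotrim II by 0.47 ± 0.10 (adjusted p = 0.00299) and was not called elsewhere, while PFKFB3 and PDK1 were called nowhere. TXNIP, an inhibitor of glucose uptake, read 360.4, 387 and 339 CPM in DMSO and 558 and 525 with Fucotrim II. It rose by 0.58 ± 0.07 with Fucotrim II (adjusted p = 0.000161) and by 0.17 ± 0.05 with P-SiaFNEtoc (adjusted p = 0.0322, lost in 6 of 17 alternatives). PDK4, a kinase that shuts the pyruvate dehydrogenase complex, had opposite signs: 0.38 ± 0.05 with Fucotrim I and 0.21 ± 0.07 with Fucotrim II, but -0.44 ± 0.05 with SGN-2FF and -0.19 ± 0.05 with P-SiaFNEtoc, all called (adjusted p 8.65e-06, 0.0273, 2.95e-07 and 0.00607), and lost in 5 and 2 of 17 alternatives with Fucotrim II and P-SiaFNEtoc. PDP2, the phosphatase that reopens it, fell by 0.46 ± 0.08, 0.39 ± 0.08 and 0.19 ± 0.06 with Fucotrim I, Fucotrim II and P-SiaFNEtoc (adjusted p 7.03e-05, 0.00279 and 0.0306), the last lost in 6 of 17 alternatives, and was -0.13 ± 0.07 and not called with SGN-2FF. DLAT, a core subunit of the complex, fell by 0.36 ± 0.05, 0.74 ± 0.06 and 0.13 ± 0.04 with the fucosylation inhibitors Fucotrim I, Fucotrim II and SGN-2FF (adjusted p 2.77e-05, 3.02e-05 and 0.0279), the last lost in 4 of 17 alternatives, and was -0.08 ± 0.04 and not called with P-SiaFNEtoc. PCK2, the mitochondrial enzyme that makes phosphoenolpyruvate, had opposite signs. It fell by 0.41 ± 0.06 with Fucotrim I and 0.26 ± 0.06 with SGN-2FF (adjusted p 3.3e-05 and 0.00236), rose by 0.23 ± 0.08 with Fucotrim II (adjusted p = 0.0384, lost in 6 of 17 alternatives) and was 0.08 ± 0.05 and not called with P-SiaFNEtoc. RPE, of the pentose phosphate pathway, fell by 0.42 ± 0.07, 0.72 ± 0.11, 0.18 ± 0.06 and 0.27 ± 0.06 with Fucotrim I, Fucotrim II, SGN-2FF and P-SiaFNEtoc (adjusted p 0.000101, 0.000669, 0.0337 and 0.00307), the third lost in 7 of 17 alternatives.

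Of 9 transcription factors of glycolytic genes, 2 were higher and 1 lower with Fucotrim I, 4 and 0 with Fucotrim II, 5 and 1 with SGN-2FF and 3 and 0 with P-SiaFNEtoc. Beside these, 21.6, 25.6, 11.5 and 9.02% of all genes tested were higher and 22.1, 25.7, 9.08 and 7.33% lower. HIF1A read 151, 160.2 and 148 CPM in DMSO, 223, 219 and 213 with Fucotrim I, 165 and 163 with Fucotrim II, 191, 181 and 196 with SGN-2FF, and 181, 181 and 169.8 with P-SiaFNEtoc. Its mRNA rose by 0.52 ± 0.05, 0.32 ± 0.04 and 0.22 ± 0.04 with Fucotrim I, SGN-2FF and P-SiaFNEtoc (adjusted p 6.0e-08, 4.59e-06 and 0.000667). With Fucotrim II it was 0.09 ± 0.06 and not called, though both libraries lay above every control. The part of HIF1A in the enzyme levels was not tested. MYC mRNA rose by 0.23 ± 0.06, 0.32 ± 0.04 and 0.20 ± 0.04 with Fucotrim II, SGN-2FF and P-SiaFNEtoc (adjusted p 0.00963, 5.0e-07 and 0.000874), the first lost in 4 of 17 alternatives. MLXIPL, which encodes the glucose sensor ChREBP, read 6.9, 8.3 and 9.3 CPM in DMSO and rose by 0.96 ± 0.12 with Fucotrim I and 1.54 ± 0.17 with Fucotrim II (adjusted p 2.18e-06 and 0.000110). It rose by 0.39 ± 0.12 with SGN-2FF (adjusted p = 0.0232, lost in 4 of 17 alternatives) and was 0.10 ± 0.12 and not called with P-SiaFNEtoc. HIF1 is controlled mostly through its protein, which these libraries do not measure.

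**Figure D5:**
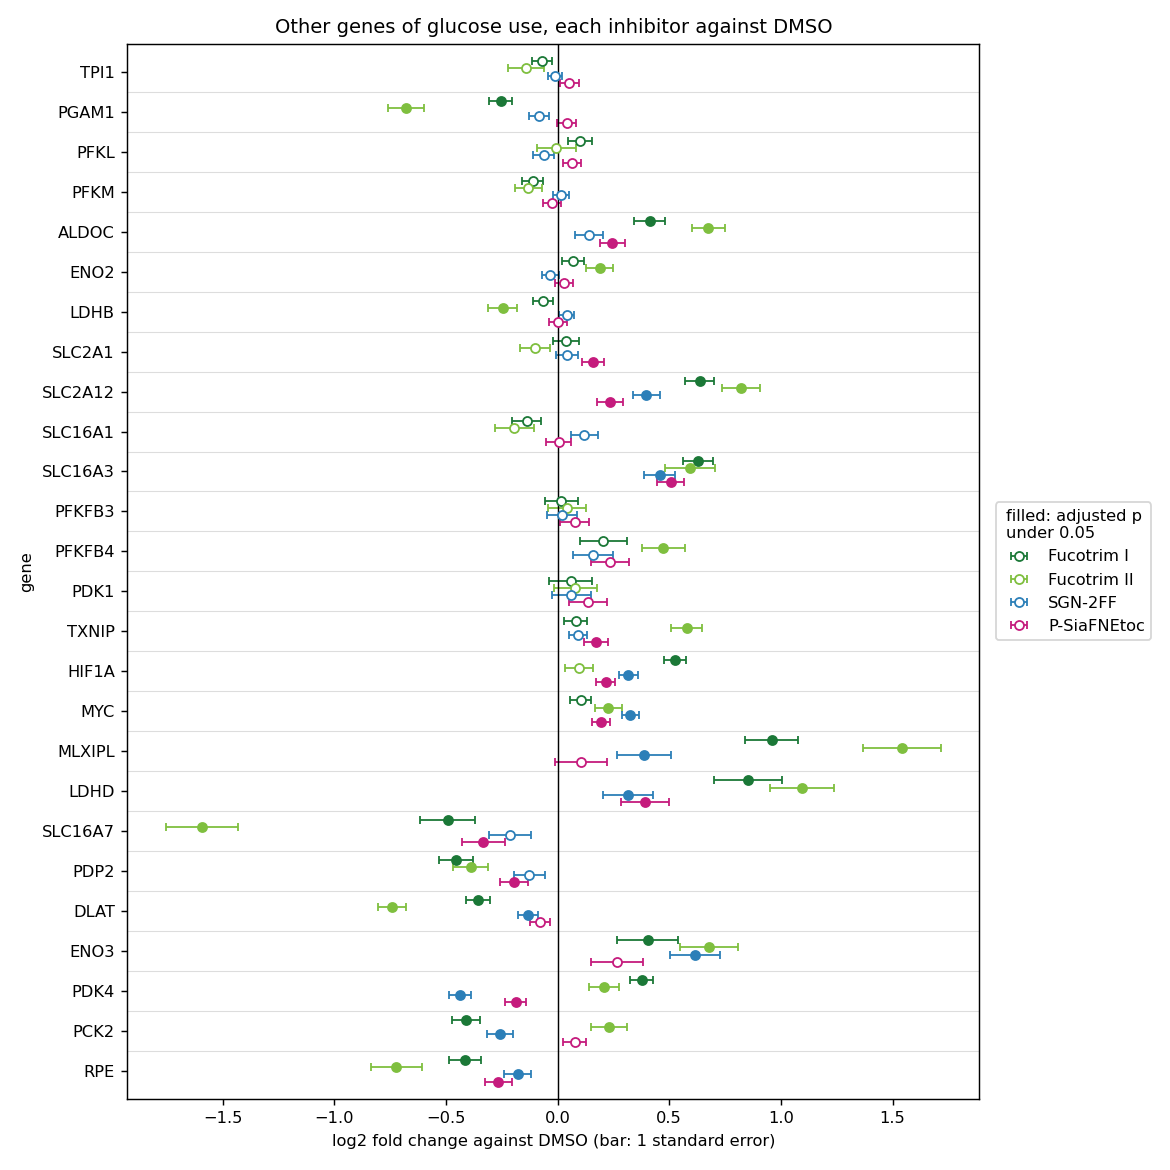
Log2 fold change against DMSO (horizontal axis) of the named other genes of glucose use (vertical axis) for the 4 inhibitors, with bars of 1 standard error and filled points for an adjusted p under 0.05. SLC16A3 and SLC2A12 lie above 0 with all 4 inhibitors, and SLC16A7 with Fucotrim II, at -1.59, lies furthest below 0.

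The 5 remaining lists moved in both directions. Of all genes tested, 21.6% were higher and 22.1% lower with Fucotrim I, and 25.6% and 25.7% with Fucotrim II. With SGN-2FF these shares were 11.5% and 9.08%, and with P-SiaFNEtoc 9.02% and 7.33%. Glycogen genes gave 1 higher and 4 lower of 11 with Fucotrim I, 1 and 6 of 12 with Fucotrim II, 1 and 3 of 11 with SGN-2FF and 1 and 1 of 12 with P-SiaFNEtoc. The hexosamine and mannose branches, which lead to sialic acid and fucose, gave 1 higher and 2 lower of 8 with Fucotrim I, 1 and 1 with Fucotrim II, 1 and 1 with SGN-2FF and 3 and 1 with P-SiaFNEtoc. For the pentose phosphate pathway the counts were 2 higher and 2 lower of 7 with Fucotrim I, 1 and 2 with Fucotrim II, 1 and 2 with SGN-2FF, and 1 and 1 with P-SiaFNEtoc. Pyruvate entry to mitochondria gave 1 and 3 of 8, 0 and 3, 1 and 2, and 1 and 0 in the same order, and gluconeogenesis 2 and 1 of 3, 3 and 0, 2 and 1, and 2 and 0.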

How the data were processed

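mRNA of CWR22Rv1 cells was sequenced in 14 libraries made with a stranded kit. Per the labels and the study's methods, reads were checked with FastQC, trimmed with Cutadapt, mapped to hg38 by HISAT2 and counted with featureCounts, and the authors deposited raw counts per gene in 4 tables, 1 for each inhibitor with the DMSO libraries. The DMSO counts were identical in the 4 tables, so each DMSO library was used once. The strand setting, the annotation release and the handling of reads that match several genes are not given in the sources used here. For Fucotrim II the study's methods state 3 repeats, and 2 libraries were analysed here, whose numbers differ between title and library name. No column of per-sample values was left unmapped.

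Each inhibitor was fitted alone with DMSO: genes were kept by filterByExpr (minimum count 10, total 15), scaled by TMM and tested with edgeR 4.0.16 (quasi-likelihood, robust), with Benjamini-Hochberg adjustment over all genes tested and a threshold of 0.05. Printed CPM were scaled by TMM over all 14 libraries together, and so can differ slightly from the fitted fold changes. Levels per kilobase used GENCODE exon lengths. Tests of shares were exact permutation tests (scipy 1.17.1). Depth, 12553094 to 19981453 counts a library, gave at least 368 counts for each enzyme in each DMSO library. The p-values measure the spread between these cultures of 1 line. Leaving out a Fucotrim II library leaves 1, so such a fit holds no spread within that treatment.

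Alternatives were DESeq2 1.42.0 (size factors, and its own test), limma-voom 3.58.1 with and without quality weights (the study's tool), no scaling, other filters, a threshold of 0.01, a replicate block, no mitochondrially encoded genes, a fit of all 14 libraries and leaving out each library in turn. The fits were tested on simulated data with 200 changed genes. The other genes named were a list of 19 and, in each comparison, the 2 largest rises and 2 largest falls among called genes with at least 50 counts on average. The members and the lists were chosen with earlier results of these data known.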

Additional observations from a re-analysis of the deposited data

How the results depend on the processing

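The calls of LDHA with Fucotrim II, GAPDH with Fucotrim I and PGK1 with P-SiaFNEtoc held in all 17 alternatives run. The number of the 10 enzymes called moved most with Fucotrim II, from 5 to 2 at an adjusted p under 0.01, to 3 with DESeq2 size factors or at least 10 counts in every library, and to 8 with all 14 libraries in 1 fit, and ranged from 2 to 9 leaving out 1 library. With SGN-2FF it moved from 2 to 0 at 0.01 and with all 14 libraries, to 1 without scaling factors (HK1, lower), with the DESeq2 test or with no filter, and ranged from 0 to 2 leaving out 1 library. With P-SiaFNEtoc it moved from 3 to 1 with all 14 libraries. Other genes of glucose use moved from 28 to 17 with SGN-2FF, and from 24 to 15 and 12 with P-SiaFNEtoc, at 0.01 and with all 14 libraries, and ranged from 16 to 30 and from 15 to 22 leaving out 1 library. In all 4 comparisons the all-14 fit takes 1 spread from every group.

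Whether numbers shared between titles mark pairs is not given and could not be settled here. Same-numbered libraries correlated in their deviations at 0.15, 0.14 and 0.02 with Fucotrim I and at -0.17 and -0.23 with Fucotrim II. With the other inhibitors the values lay between -0.07 and 0.07. A block by title moved the calls over all genes from 6209 to 7288 with Fucotrim I and from 7511 to 5300 with Fucotrim II. The calls moved from 2946 to 2868 with SGN-2FF and from 2331 to 2674 with P-SiaFNEtoc. With the replicate block, enzymes called were 1 with Fucotrim II (LDHA; PGK1 had an adjusted p of 0.0810 and HK2 0.184) and 1 with SGN-2FF (ENO1), and the 3 and 3 called with Fucotrim I and P-SiaFNEtoc did not change in number. Pairing Fucotrim II by the library names, which cross the titles (0.23 and 0.06), gave 4 calls among the enzymes and 7779 over all genes. With 2 libraries in the group the deviations are equal and opposite, so the 0.23 is the -0.23 by title with its sign turned.

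Some values near 0 changed sign. HK2 with Fucotrim I (0.0001) read -0.0001 with the block, -0.0731 without scaling factors, -0.0133 with no filter, -0.003 with all 14 libraries and -0.0119 to 0.0108 leaving out 1 library. PFKP with P-SiaFNEtoc read -0.0095 with quality weights. Leaving out 1 library gave ranges of -0.0263 to 0.0244 for PKM with Fucotrim I, -0.2947 to 0.1261 for PFKP with Fucotrim II, -0.2718 to 0.0776 for ENO1 with Fucotrim II, -0.0476 to 0.0515 for PFKP with P-SiaFNEtoc and -0.0178 to 0.049 for LDHA with P-SiaFNEtoc.

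The difference in the share of PFKP, in percentage points, read -0.0194 with Fucotrim II without division by length and 0.0223 with P-SiaFNEtoc with the longest transcript. Leaving out 1 library gave share differences of -2.9767 to 1.5464 for HK2 with Fucotrim II, -0.6984 to 0.5751 for HK2 with P-SiaFNEtoc, -0.3874 to 0.388 for PFKP with Fucotrim II, -0.114 to 0.1256 for PFKP with P-SiaFNEtoc, -0.3574 to 0.08 for LDHA with Fucotrim I and -0.1523 to 0.2851 for LDHA with SGN-2FF. The summed share moved in every group with mitochondrially encoded genes out of the total, to 1.03% (DMSO), 0.992% (Fucotrim I), 0.890% (Fucotrim II), 1.04% (SGN-2FF) and 1.09% (P-SiaFNEtoc). The summed share rises as its total shrinks, and the cause of the other changes was not tested. With 2 libraries, small changes with Fucotrim II were the least well resolved.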

Other observations

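Genes at the branches of glycolysis that the report only counts were looked at after their values were seen. PYGB, the brain-type glycogen phosphorylase that releases glucose phosphate from glycogen, stood at 46.3 ± 2.6 CPM (SD, n = 3) in DMSO, 66.3 ± 4.0 with Fucotrim I, 88.4 ± 4.7 (n = 2) with Fucotrim II, 59.1 ± 2.5 with SGN-2FF and 58.2 ± 2.7 with P-SiaFNEtoc, and every treated library lay above every control. Its log2 fold changes of 0.53 ± 0.06, 0.93 ± 0.07, 0.37 ± 0.06 and 0.33 ± 0.05 (SE) were all called by edgeR's quasi-likelihood test, against DMSO libraries that the comparisons share. PMM1, a phosphomannomutase of the branch that leads to GDP-fucose, stood at 54.6 ± 1.7 CPM in DMSO, 70.4 ± 2.6 with Fucotrim I and 94.2 ± 6.8 (n = 2) with Fucotrim II. PMM1 rose by 0.38 ± 0.06 and 0.78 ± 0.07 with these, and read 0.10 ± 0.05 and 0.08 ± 0.05, not called, with SGN-2FF and P-SiaFNEtoc. TIGAR, a phosphatase that lowers the activator of phosphofructokinase, was scarce, at 8.22 ± 0.34 CPM in DMSO and 5.02 ± 0.034 (n = 2) with Fucotrim II, and fell by 0.71 ± 0.13 with Fucotrim II (adjusted p = 0.00175) and was called with no other inhibitor. Whether these values differ between inhibitors was not tested.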
